A study of Mus musculus with 2 samples.

Results

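Splice junctions that rested on a single sequencing read were taken from the junction list deposited for adult mouse spleen. They are all entries of that list whose deposited read number is 1, and they number 179519 of 428708 listed junctions (41.9%, 95% Wilson interval 41.7 to 42.0). The read number chose them, so it is given here only as a description. Spleen tissue of C57BL/6J mice of 8 weeks was sequenced in 2 libraries, labelled as biological replicates, of strand-preserving, paired reads from RNA with poly(A) tails that had been depleted of ribosomal RNA. The labels give mixed-sex littermates as the source, attach 1 donor record to both libraries and name no treatment and no second group. The junction list covers both libraries together, on the mm9 assembly.

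A spliced read aligns to the genome in pieces, and the gap between neighbouring pieces is taken as an intron. The spliceosome cuts an intron at its 5′ end, the donor site, and at its 3′ end, the acceptor site, and nearly all nuclear introns carry the same few letters at these ends. Leaving an exon out, or using a neighbouring donor or acceptor, gives a junction that shares an end with the usual one. Spleen holds large populations of B and T cells, red blood cell precursors and phagocytes, and the antigen receptor genes of its lymphocytes are rearranged in the DNA itself.

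Each entry of the list gives an intron by its first and last base, its strand, a read number and 2 flags, A and C, of 0 or 1, with fields R1 and R2 that add up to the read number in 100% of entries. R1 and R2 were read as the 2 replicates, although the list does not say which field is which library. The sources used here do not explain the flags, so they were compared with other measurements. Of junctions longer than 20000 bases, 98.7% of those with flag A of 1 had exactly the length of an intron of the GENCODE M21 annotation on the same chromosome and strand. That share was 4.96% with A of 0 and C of 1, and 0.251% with both flags at 0. Flag A was therefore read as marking annotated introns. Flag C was read as marking introns with recognised splice site letters, because no single-read junction with C of 1 that shared 1 end with a well-read junction with C of 1 had its other end 1 base away, as described further on. These readings come from the data and not from the authors. The list holds no sequence letters, and no genome of its build was used, so no splice site is printed.

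On these readings of the flags, most single-read junctions were unannotated and lacked recognised splice site letters. Flag A was 1 in 11505 of them (6.41%), against 35.6% of all listed junctions and 56.6% of those with 2 or more reads. Flag C was 1 in 53800 (29.97%), against 58.3% of all listed junctions and 78.7% of those with 2 or more reads. A further 42348 (23.6%) had A of 0 and C of 1, and 125666 had both flags at 0. Flag C was 1 in 50.2% of junctions with 2 reads, in 71.4% of those with 3 to 9 reads and in 96.1% of those with 10 or more. The share with flag C of 1 thus rose from each read class to the next.

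Seen from the other side, 7.55% of listed junctions with flag A of 1 had a single read. The same share was 43.2% with A of 0 and C of 1, and 70.5% with both flags at 0. Junctions of 1 read outnumbered those of 2 reads 1.42 to 1 with flag A of 1, 2.23 to 1 with only flag C of 1, and 4.69 to 1 with both flags at 0. The single-read junctions held 0.380% of the read numbers of the list, which add up to 47250741 over all junctions. Every one of them had the deposited score 0 and the irreproducibility value 0.808, the highest of the list, so neither column orders the members among themselves. The step from just inside to just outside the threshold was large in number: 179519 junctions had 1 read and 53906 had 2.

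Single-read junctions were longer and far more spread in length than junctions with more reads. Their median length was 3705 bases, with quartiles at 300 and 99376. The median was 1236 bases (quartiles 215 and 9255) at 2 reads, 1379 at 3 to 9 reads and 1148 (quartiles 345 and 3144) at 10 or more reads. Introns over 100000 bases made up 24.9% of the single-read junctions, 10.5% of junctions with 2 reads, 6.49% of those with 3 to 9 reads and 1.28% of those with 10 or more. The excess of long introns was thus already much smaller at 2 reads than at 1.

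The flags split these lengths. Single-read junctions with flag A of 1 had a median of 1712 bases (quartiles 642 and 4535), and those with only flag C of 1 had a median of 1864 (quartiles 461 and 9462.5). With both flags at 0 the median was 15367 bases, between quartiles of 220 and 145299. These last junctions fell into a short and a long set: 37.4% were under 1000 bases and 32.9% over 100000. Members with flag C of 1 were nearer to the well-read junctions in median length, at 1816.5 against 1148 bases, but still held more long introns. Of them 21.8% were over 10000 bases and 6.28% over 100000, against 8.88% and 0.685% with flag C of 1 at 10 or more reads. With flag A of 1, 12.4% were over 10000 bases and 0.730% over 100000.

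**Figure D1:**
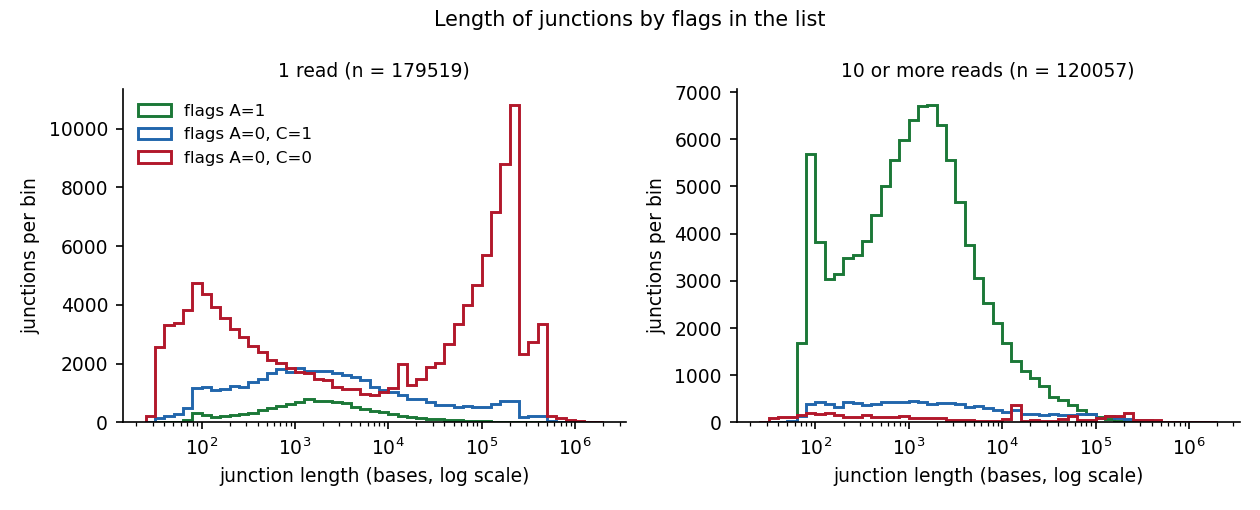
Number of junctions in each bin of length in bases (log axis), by flags, for single-read junctions and for junctions of 10 or more reads. Single-read junctions with both flags at 0 form a short and a long hump on either side of the well-read junctions, and those with flag A or C of 1 lie nearer to the well-read ones.

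The long hump ended in steps. From 220000 to 250000 bases, bins of 10000 bases held 2184, 2319 and 2317 single-read junctions. The 4 bins from 250000 on held 391, 404, 456 and 361. A second step lay at 500000 bases, where the numbers went from 326, 341 and 379 in the 3 bins before it to 70, 31 and 19 in the 3 bins after it. The first step also showed among members with flag C of 1, which numbered 134, 130 and 134 in the 3 bins before 250000 bases and 33, 29, 38 and 26 in the 4 after it. Junctions of 10 or more reads numbered 45, 38 and 44 in the same 3 bins and 12, 27, 15 and 26 in the 4 that follow. A limit on intron length, if one was set in alignment, is nowhere described in the labels or deposited notes.

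The longest single-read junction ran from chr14:53200890-54814168 on the plus strand of mm9, a gap of 1613279 bases. The next longest were chrX:145248867-146690485 on the minus strand, with 1441619 bases, and chr14:53364518-54799641 on the plus strand, with 1435124. The third of these lies wholly within the longest. The shortest members had 31 bases, the shortest length in the list, and the first of them in genome order were chr1:36609183-36609213 on the minus strand and chr1:88871693-88871723 and chr1:95404445-95404475 on the plus strand. All 6 had both flags at 0 and shared neither end with a well-read junction. At both extremes of length the named members thus came from the same class.

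To place the single-read junctions among established ones, each end was compared with the ends of junctions of 10 or more reads on the same chromosome and strand, called anchors here. There are 120057 anchors, and a donor was matched only with donors and an acceptor only with acceptors. Neither end lay on an anchor end in 143855 single-read junctions (80.1%, 95% interval 79.9 to 80.3). Exactly 1 end did so in 30603 (17.0%), of which 16274 (9.07% of all members) shared the donor only and 14329 (7.98%) the acceptor only. Both ends did so in 5061 (2.82%, interval 2.74 to 2.90).

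At least 1 end was shared by 35664 single-read junctions (19.9%), against 24.8% of all listed junctions and 28.3% of those with 2 or more reads. Both ends were shared by 2.82%, against 4.27% of all listed junctions and 5.31% of those with 2 or more reads. At least 1 end was shared by 32.3% of junctions with 2 reads and by 35.6% of those with 3 to 9 reads. It was 21.9% among the anchors themselves, each matched with the other anchors. Both shares of the single-read junctions lay below the background of the list and below those of the read classes next to them. Within the flags the order differed. The shares with at least 1 end follow for 1, 2, 3 to 9 and 10 or more reads in turn. With flag A of 1 they were 16.9%, 17.4%, 14.5% and 14.7%. With A of 0 and C of 1 they were 58.4%, 66.8%, 73.3% and 83.9%. With both flags at 0 they were 7.16%, 12.3%, 17.7% and 40.9%. Flag C of 1, whatever flag A, gave 49.6%, 52.1%, 42.8% and 21.1%. These shares describe 1 list, whose junctions come from the same RNA and share sites, so no test was made of them.

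**Figure D2:**
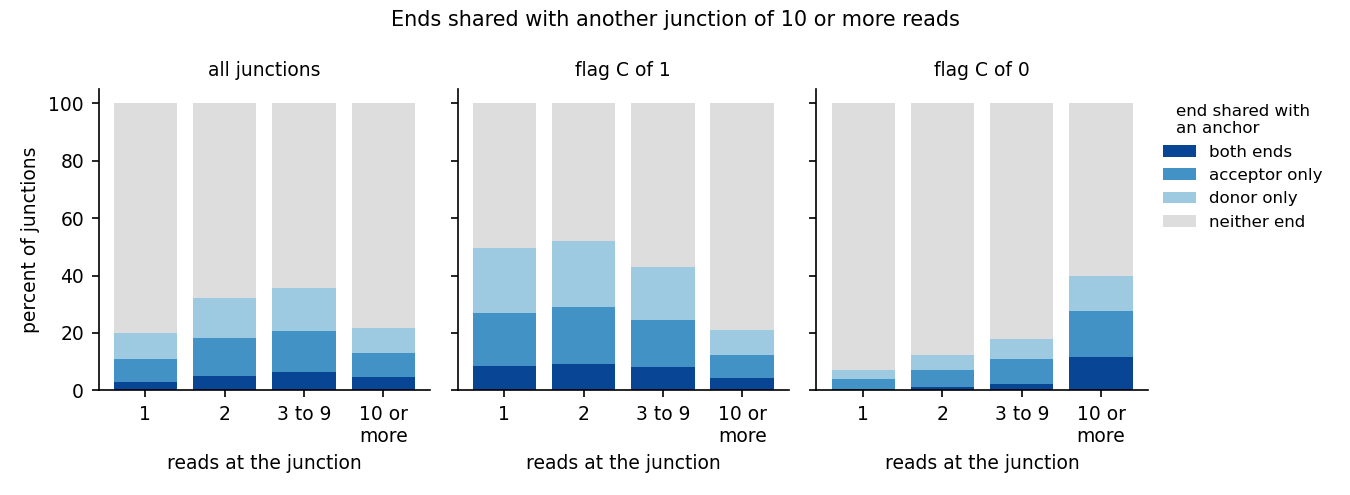
Percent of junctions in each read class whose ends are shared with an anchor, for all junctions and by flag C. An anchor is a junction of 10 or more reads on the same chromosome and strand. Among single-read junctions 80.1% share neither end, while 49.6% of those with flag C of 1 share at least 1 end.

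The flags separated the single-read junctions by end sharing more than the read class did. Of members with A of 0 and C of 1, 58.4% shared at least 1 end with an anchor: 27.0% the donor only, 21.4% the acceptor only and 9.92% both. Of members with flag A of 1 only 16.9% shared an end, and of members with both flags at 0 only 7.16%. Most annotated single-read introns thus lay apart from the anchors, and 77.5% of them overlapped no anchor on their strand. Looked at from the sharing classes, flag C was 1 in 18.9% of members that shared neither end, in 74.9% of those that shared the donor, in 69.5% of those that shared the acceptor and in 89.0% of those that shared both.

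End sharing also varied with length. It was lowest in the shortest introns, at 3.55% with at least 1 end shared for 31 to 69 bases and 14.1% for 70 to 99 bases. The share rose to 32.5% from 300 bases, 37.0% from 1000 and 38.3% from 3000 to under 10000 bases. It was 31.5% from 10000 to under 30000 bases, 11.8% up to 100000, 6.07% from there to 250000 and 7.34% beyond. Among members with flag C of 1 the range was narrower. Their share was 18.5% at 31 to 69 bases, between 40.5% and 55.8% in each bin from 70 to under 100000 bases, 28.7% from there to 250000 and 26.0% beyond. The median length was 6075 bases for members that shared neither end, 1333.5 with only the donor shared, 2089 with only the acceptor shared and 4508 with both.

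Most members off the anchors were also alone in the list. Of the 143855 single-read junctions that shared neither end with an anchor, 106863 (74.3%) had no end in common with any other listed junction. A further 13841 (9.62%) had an end on a junction of 2 to 9 reads, and 23151 (16.1%) had one only on another single-read junction. Sharing with junctions of 2 to 9 reads was 28.6% for members with A of 0 and C of 1, 10.6% for those with A of 1 and 6.68% for those with both flags at 0. In the same 3 groups 52.9%, 81.9% and 76.9% had no end on any other listed junction, so those with A of 1 were most often alone. The 179519 members used 164075 different donor ends and 162830 different acceptor ends.

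The unshared end lay near that of the anchor more often where the donor was shared than where the acceptor was. The unshared acceptor was within 100 bases of an anchor acceptor joined to the same donor in 47.6% of members, with a median distance of 128 bases. Where the acceptor was shared, the unshared donor was that close in 32.4%, with a median distance of 539 bases. Both kinds together gave 40.5%. In number, 7739 members had an acceptor this close to that of an anchor and 4640 a donor. The other read classes were alike, with 49.6% and 33.5% at 2 reads and 49.8% and 33.5% at 3 to 9 reads. For members with flag C of 1 beside anchors with flag C of 1, the 2 shares were 42.8% and 24.0%.

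In members with flag C of 1 beside anchors with flag C of 1, small shifts had a strong direction at the acceptor. Of 12158 such members with a shared donor, 1867 had their acceptor within 12 bases of the anchor acceptor, and 93.8% of these lay downstream, so that the following exon would start later. The most frequent shift was 4 bases downstream, with 359 junctions (19.2% of the 1867), followed by 3 bases with 284, 5 bases with 255, 2 bases with 240 and 6 bases with 193. Upstream, 32 lay at 3 bases and 16 at 4. Junctions of 2 and of 3 to 9 reads were alike, with 91.3% and 89.3% of these small shifts downstream. There too 4 bases downstream was the most frequent shift, with 221 and 409. Acceptors 3 bases apart, the spacing of tandem NAG sites that leaves the reading frame in place, were thus not the most frequent pair among the single-read junctions.

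Shifts of 1 to 12 bases at the acceptor were divisible by 3 in 35.4% of these members (95% interval 33.2 to 37.5). That share was 35.3% at 2 reads and 41.3% (interval 39.1 to 43.6) at 3 to 9 reads. A shift of 3 bases downstream made up 20.7% of small acceptor shifts at 3 to 9 reads and a shift of 4 bases 22.0%, so the 2 were nearly even there.

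At the donor the small shifts had less direction, and a single spacing stood out. Of 9900 members with flag C of 1 and a shared acceptor beside an anchor with flag C of 1, 797 had their donor within 12 bases of the anchor donor. Downstream lay 56.3% of the 797, against 93.8% at the acceptor. A donor 4 bases downstream accounted for 193 of the 797 (24.2%), and 69 lay 4 bases upstream. Only 5 lay 3 bases downstream and 62 lay 5 bases downstream. A donor 4 bases downstream made up 22.6% of such shifts at 2 reads and 19.8% at 3 to 9 reads. A spacing of 4 bases between donors is the one at which the usual donor letters GTNNGT can place a second GT inside the first site, and it shifts the reading frame.

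**Figure D3:**
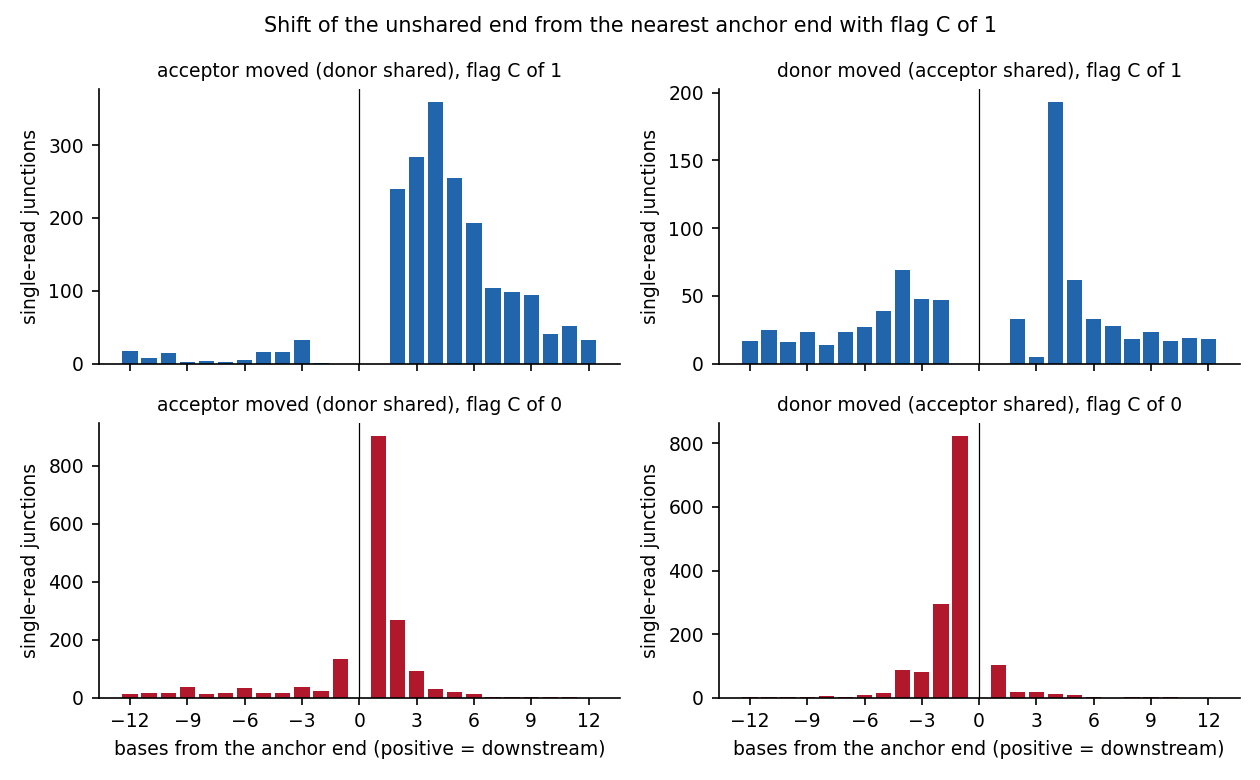
Number of single-read junctions by the distance in bases of their unshared end from the nearest anchor end, positive for downstream, for anchors with flag C of 1. With flag C of 1 the acceptor peaks at 4 bases downstream (359) and the donor at 4 bases downstream (193), and with flag C of 0 both peak at 1 base away from the intron (902 and 822).

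Members with flag C of 0 beside anchors with flag C of 1 shifted by less. With the donor shared there were 2683, and 1035 of them (38.6%) had their acceptor 1 base from that of the anchor, 902 downstream and 133 upstream. With the acceptor shared there were 2079, and 926 of them (44.5%) had their donor 1 base away, 822 upstream and 104 downstream. Both main directions make the intron 1 base longer than that of the anchor. The acceptor was 1 base away in 36.6% of such junctions at 2 reads and in 36.0% at 3 to 9 reads. The donor was 1 base away in 41.8% and 40.7%. No member with flag C of 1 lay 1 base from an anchor with flag C of 1 at either end, the observation on which the reading of flag C rests.

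The named examples of small shifts sit beside very abundant junctions. At chr6:41474589-41474874 on the plus strand, the member ended 3 bases downstream of the anchor acceptor, which was read 24858 times. At chr15:100511716-100513317 on the minus strand the acceptor shift was 4 bases downstream, beside an anchor of 38505 reads. At chr6:41253443-41254329 on the plus strand it was 5 bases, beside 59201 reads. These 3 had both flags at 0, whereas the acceptor shift of 6 bases at chr5:116012576-116013297 on the plus strand, beside 12195 reads, had flag C of 1.

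At the donor, the member at chr7:107647423-107647744 on the plus strand began 3 bases upstream of an anchor of 18213 reads. The member at chr4:141401188-141402139 on the minus strand began 4 bases downstream of one of 26434 reads. At chr17:34404974-34405405 on the plus strand the shift was 5 bases upstream, beside 24011 reads, and at chr19:10969953-10971992 on the plus strand it was 6 bases upstream, beside 5342. All 4 had both flags at 0. Of these 8 members, picked for the reads of their anchors, 7 had flag C of 0, which is not typical of such shifts. Over all members with a shift of 3 to 6 bases, flag C was 1 in 1162 of 1551 (74.9%) with a shared donor and in 482 of 833 (57.9%) with a shared acceptor.

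Most single-read junctions with both ends on anchors spanned a pair of anchors and the piece between them, as a junction that skips an exon does. In 4343 of the 5061 (85.8%) the anchors at both ends lay inside the member with a piece of sequence between them. An end can lie on several anchors, and a member was counted here if any pair of its anchors was so placed. In 198 (3.91%) the anchors inside overlapped each other, in 367 (7.25%) only 1 of them lay inside and in 153 (3.02%) both reached beyond the member. With flag C of 1 the piece was present in 4242 of 4506 (94.1%), and with flag C of 0 in 101 of 555 (18.2%). Of several such pairs the one whose weaker anchor had the most reads was taken. That weaker anchor had a median of 66 reads over the 4343 members. The piece was present in 85.5% of junctions with both ends shared at 2 reads. It was present in 83.1% at 3 to 9 reads and in 70.4% at 10 or more.

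The piece between the anchors had a median of 149 bases, with quartiles at 94 and 695.5, and 2996 of the 4343 pieces (69.0%) were at most 300 bases long, the usual range of internal exons. Of those 2996, 36.1% (interval 34.4 to 37.9) had a length divisible by 3, the lengths whose skipping keeps the reading frame. The same share was 37.3% (35.0 to 39.7) at 2 reads, 35.9% (34.2 to 37.7) at 3 to 9 reads and 43.2% (41.3 to 45.1) at 10 or more reads. The anchors thus had the highest of these 4 shares, and the difference was not tested.

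The examples beside the most abundant anchors lay in 1 stretch of chromosome 11. The member at chr11:32196619-32197079 on the plus strand, 461 bases long, joined the donor of an anchor of 332637 reads to the acceptor of one of 2577583 and left out a piece of 205 bases. The member at chr11:32183802-32184262 on the plus strand had the same length, 461 bases, and the same piece of 205 bases, between anchors of 332158 and 2667199 reads. The third, chr11:32183802-32197079 on the plus strand, ran from the donor of the second locus to the acceptor of the first over 13278 bases. Its anchors had 332158 and 2578327 reads, again with a piece of 205 bases between them. At least 1 of these anchors therefore itself spanned most of the distance between the loci. Whether the same reads were counted at several of these junctions was not tested. All 3 had flag C of 1, and the anchor of 2667199 reads was the most abundant junction of the list. Both loci have the same spacing of ends, and where 2 copies are nearly identical the copy a read came from is uncertain.

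Single-read junctions accumulated at anchors with many reads, but far less than in proportion to the reads. Of all 120057 anchors, 33084 (27.6%) had at least 1 single-read junction on an end. The share was 23.6% for anchors of 10 to 19 reads, 22.8% for 20 to 49, 24.6% for 50 to 99, 27.4% from 100, 32.8% from 200, 39.5% from 500 and 54.2% for 1000 or more. The mean number per anchor was 0.651 in the lowest bin, fell to 0.421 in the bin from 100 reads and was 1.01 in the highest. A junction counts here for each anchor at its ends.

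Per 1000 anchor reads, the number of single-read junctions went down at every step. It was 47.2 at 10 to 19 reads, 15.5 at 20 to 49, 6.02 at 50 to 99, 2.95 from 100, 1.49 from 200, 0.813 from 500 and 0.164 at 1000 or more. The share of these junctions with flag C of 1 was 62.1% in the lowest bin, highest in the bin from 200 reads with 82.0% and 64.3% in the highest bin. A variant read more than once is by definition not a member, so these numbers are not rates of variant splicing. Each number was also divided by the anchors' own reads. A weak anchor that shares an end with an abundant one thus counts the same junctions over fewer reads. Part of the fall is therefore built into the count.

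**Figure D4:**
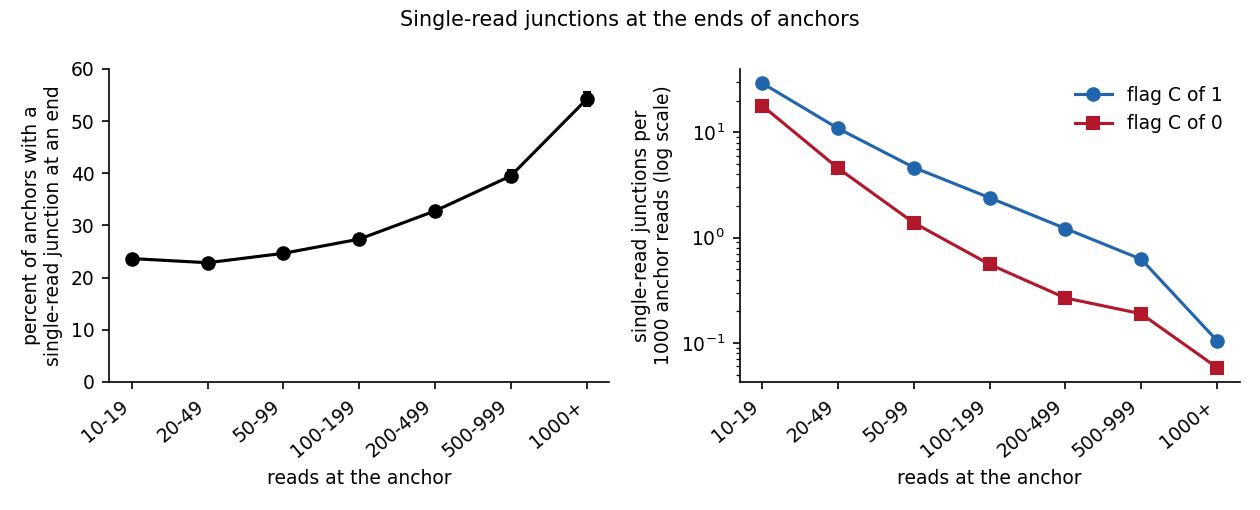
Single-read junctions at anchors in bins of anchor reads: the percent of anchors with at least 1 and, by flag C, the number per 1000 anchor reads (log axis). The percent is 23.6% in the lowest bin and 54.2% in the highest. The number per 1000 reads falls from 29.3 to 0.105 with flag C of 1 and from 17.9 to 0.0584 with flag C of 0.

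By position, 52888 single-read junctions (29.5%) lay wholly inside an anchor intron on their strand, with a median length of 693 bases. At least 1 anchor lay within 75499 members (42.1%), with a median length of 73842 bases, and 17244 members (9.61%) belong to both of these sets, inside one anchor and around another. No anchor on their strand was overlapped by 56451 (31.4%), and 11925 (6.64%) overlapped anchors in part only. Of all members, 44970 (25.1%) overlapped no anchor of either strand. At 2 reads, 37.3% lay inside an anchor and 35.7% held one, the opposite order. Members with both flags at 0 held an anchor in 46.2%, with a median length of 111046 bases.

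Coordinates were also compared between strands. Only 2 single-read junctions had exactly the coordinates of an anchor on the other strand, and 401 (0.223%) had those of any listed junction there. None of the 42348 with A of 0 and C of 1 was among these 401. The one opposite the anchor with the most reads was chr8:44401501-44402805 on the plus strand, 1305 bases long, whose anchor on the minus strand had 12 reads. The members were divided evenly between strands, with 89295 (49.7%) on plus and 90224 (50.3%) on minus.

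The deposited contigs, which are stretches of continuous read coverage, often covered both sides of a single-read junction. The exon-side base at each end lay in a contig of the same strand in 58.6% of members, against 76.6% at 2 reads, 87.2% at 3 to 9 reads and 98.5% at 10 or more. It was 51.6% for members that shared neither end with an anchor, 84.9% for those that shared exactly 1 and 98.6% for those that shared both. In 17.7% of members neither side lay in a contig of the same strand. Members with A of 0 and C of 1 were covered on both sides in 73.3%, those with A of 1 in 53.0% and those with both flags at 0 in 54.2%, but the first group also shared ends most often. Among members with neither end shared, the same 3 groups had 52.0%, 46.0% and 52.0%, and with exactly 1 end shared 86.3%, 85.3% and 81.4%. Contigs and junctions come from the same reads, so this coverage is not independent of them.

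Of the single-read junctions 93498 (52.1%) had their read in field R1 and 86021 in field R2, although R2 held more junction reads, with 25426440 against 21824301. This made 4.28 single-read junctions per 1000 junction reads in R1 and 3.38 in R2. The share in R1 was 50.6% with A of 1, 54.3% with A of 0 and C of 1, and 51.5% with both flags at 0. With 1 value per field there is no spread against which to set this difference.

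A member has no read in the other field by definition, so whether such junctions recur was asked of all junctions with exactly 1 read in 1 field, whatever the other held. Of 113658 junctions with 1 read in R1, 17.7% had a read in R2, and of 104746 with 1 read in R2, 17.9% had one in R1. Annotated junctions recurred most, at 57.4% from R1 to R2 and 54.4% from R2 to R1. Junctions with A of 0 and C of 1 recurred at 23.8% and 26.2%, and those with both flags at 0 at 7.35% and 7.68%. The order of the 3 flag groups was the same in both directions.

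Within the unannotated junctions, recurrence went with end sharing. With A of 0 and C of 1 it was 18.1% and 18.2% in the 2 directions for junctions with neither end on an anchor, 26.7% and 30.4% with exactly 1 and 29.0% and 35.8% with both. With both flags at 0 it was 6.31% and 6.75% with neither, 17.9% and 17.3% with exactly 1, and 36.6% and 28.3% with both, over 410 junctions in each direction. With flag A of 1 there was no such order: recurrence was 58.6% and 54.5% with neither end shared, 51.8% and 52.5% with exactly 1, and, with both, 181 of 362 and 60.7%. Anchors were defined on the reads of both fields together, so they are not independent of the other field. Junctions with both flags at 0 and both ends shared had a median length of 12816 bases at 1 read and 13032.5 at 2 reads. These medians are near the 13278 bases of the chromosome 11 member that ran between 2 loci. How much of their recurrence came from that stretch was not counted.

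**Figure D5:**
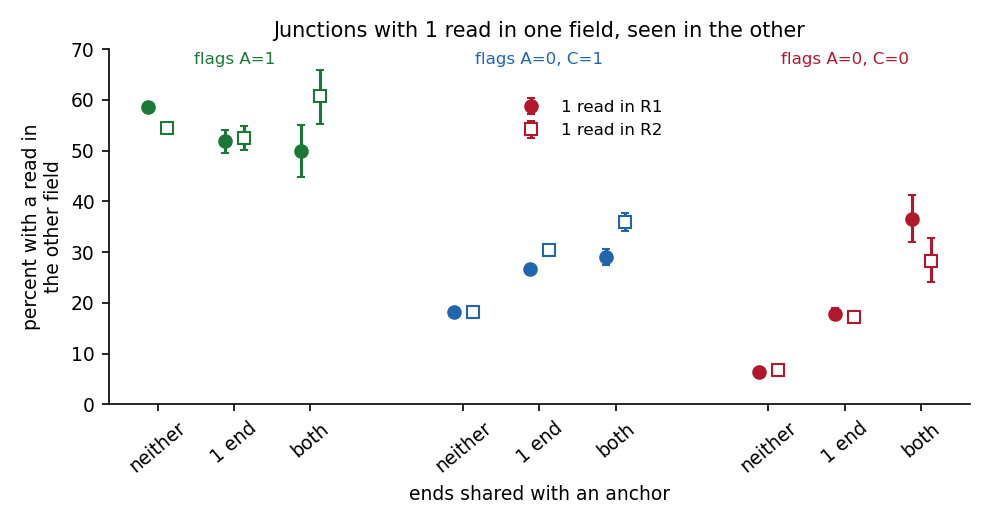
Percent of junctions with exactly 1 read in field R1 (filled circles) or R2 (open squares) that had any read in the other field, by flags and by ends shared with an anchor, with 95% Wilson intervals that cover counting error only. Annotated junctions with no shared end lie at 58.6% and 54.5%, and those with both flags at 0 and no shared end at 6.31% and 6.75%.

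Across chromosomes the single-read share of listed junctions was alike, from 39.7% to 44.5% on the autosomes and X. It was 31.9% on Y, with 45 of 141, and 59.0% on the mitochondrial sequence, with 49 of 83, where no member had flag C of 1 and the median length was 97 bases. Sharing of at least 1 end with an anchor was highest on chromosome 12, at 33.6% of members, and next on chromosome 11, at 23.8%. A single window of 100000 bases on each carried this: without its fullest window, an alternative chosen after seeing the data, chromosome 12 had 20.7% and chromosome 11 had 20.1%, beside 20.9% on chromosome 16. The median length was also highest on chromosome 12, at 10088.5 bases, and was 17804.5 without that window.

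Members were spread over 27272 windows of 100000 bases per strand, with a median of 3 in each, but the 100 fullest windows held 10.4% of them. The 3 fullest windows, picked after their values were seen, were chr12:114600001-114700000 on minus with 2318 members, chr11:32100001-32200000 on plus with 1543 and chr7:110900001-111000000 on minus with 745. At least 1 end was on an anchor in 70.7%, 58.9% and 42.8% of the members of these windows, all above the 19.9% of all members. Full windows did not all share ends this often: the share was 16.1%, 12.04%, 18.5% and 13.8% in the 4 next fullest, which held 584, 490, 336 and 319 members. Flag C was 1 in 27.4% in the first window, but in 4.67% and 5.23% in the others. The last 2 thus combined frequent end sharing with few members of flag C of 1. Listed junctions of the chromosome 11 window held 8853944 reads, and the 3 skipping examples with the most abundant anchors lay in it.

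The 3 anchors with the most single-read junctions lay in the chromosome 12 window and shared one acceptor. The anchor chr12:114660942-114663205 on the minus strand, with only 10 reads, had 64 single-read junctions at its ends, 39 at the donor and 25 at the acceptor, of which 55 had flag C of 1. The anchor chr12:114660942-114662975, with 44 reads, had 62, and chr12:114660942-114663215, with 45 reads, had 59, each including the same 25 at the common acceptor. Flag C was 1 in 34 of the 62 and in 49 of the 59. The single-read junctions outnumbered the reads of each anchor itself. All 3 anchors shared both ends with other anchors, however, so those reads are not all the reads at these ends.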

How the data were processed

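The report uses the list of splice junctions and the list of contigs deposited for the series, both on mm9 in the bedRnaElements format, per the deposited notes. The deposited junction list gives a whole-number count of reads per junction, a score from 0 that follows this count, a second whole number that was not used, and an irreproducibility value read like a p-value. The deposited contig list gives a coverage level, or signal, of which only the positions were used. The lists have no column names. Aligner and caller: not given in the sources used here. Gene and transcript tables, on another build, were not used.

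Single-read junctions are entries with a count of 1, and anchors entries with a count of at least 10. Members and lists were chosen with earlier results of these data known. Ends were matched exactly on chromosome and strand. The list gives 1 value per junction for the whole series, so shares are descriptions with 95% Wilson intervals, which cover counting error only, and no test was made. Named junctions are the 3 longest and 3 shortest, the 3 with both ends shared and the most reads at the weaker anchor, the 3 anchors with the most members, for each shift of 3 to 6 bases the one beside the most abundant anchor, and the one opposite the most abundant anchor, with ties by position. No gene is named, because no annotation of this build was used. For flag A only intron lengths were compared with GENCODE M21. Python 3.11.15 with pandas 2.3.3, numpy 2.4.6, scipy 1.17.1 and matplotlib 3.10.9 was used, and the matching steps were tested on simulated data. Alternatives were other anchor minimums, strand ignored, lengths of 70 to 100000 bases, nuclear chromosomes only, flag C of 1 only, 1 field alone, and leaving out the 3 fullest windows.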

Additional observations from a re-analysis of the deposited data

How the results depend on the processing

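Leaving out the mitochondrial sequence moved none of the 6 results given here beyond its counting interval, nor did ignoring strand for the 4 results on shared ends, where it applies. The single-read share of the list (41.9%) was 54.4% for 2 reads or fewer and 34.9% for lengths of 70 to 100000 bases. Within those lengths the median fell from 3705 to 1378 bases, neither end was shared by 73.7%, exactly 1 by 22.5% and both by 3.83%, and 43.2% of unshared ends were within 100 bases. With anchors of 5 or more reads, neither, 1 and both ends were shared by 77.6%, 18.8% and 3.63%, and with anchors of 20 or more by 82.6%, 15.2% and 2.18%. The following were chosen after seeing the data. With flag C of 1 only, the median was 1816.5 bases, the 3 shares were 50.4%, 41.2% and 8.38%, and 34.3% of unshared ends were within 100 bases. Without the 3 fullest windows the shares were 81.4%, 16.2% and 2.42%, with 41.2% within 100 bases, while the single-read share and the median stayed within their intervals. With the reads of R1 or R2 alone, which also redefines members and anchors, the single-read share was 35.2% to 37.6%, the median 2517 to 3196 bases, the 3 shares 79.3% to 80.3%, 17.1% to 17.9% and 2.62% to 2.80%, and the share within 100 bases 40.2% to 40.3%. No paired analysis was possible because the labels give 1 group. A single read is the least the list can hold, so at this depth members with a low steady use and members seen by error cannot be told apart one by one.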
